A study of Mus musculus with 3 samples.

Results

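Monocytes and macrophages that enter the brain from the blood were picked out of a single-cell survey of 4 mouse brains by the genes each cell carried. The cells were chosen by their own RNA counts, so the genes of the rule describe the choice. A cell was kept when it lay in the deposited cluster 3, had a UMI (a counted mRNA molecule) of at least 2 of the 5 genes Ms4a4c, Clec4a3, Tgfbi, Clec4n and Msr1, and had UMIs of at most 2 of the 7 microglia genes Tmem119, P2ry12, Cx3cr1, Fcrls, Gpr34, Siglech and Olfml3. It also had at most 1 of Pf4, Gpnmb and Ms4a7 and at most 1 of the 5 T cell genes Cd3d, Cd3e, Cd3g, Trac and Trbc2. These conditions left 78 of 4668 cells, here called marrow-derived cells. The name rests on those marker genes, and no label traces the cells to the marrow.

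The brains came from female C57BL/6 mice aged 2 to 3 months, which were either naive or carried metastases about 2 weeks after E0771 mammary carcinoma cells were given through the carotid artery. Perfused brains were digested with papain and enriched for mononuclear cells on a Percoll gradient, so shares of cells describe the enriched suspension and not the tissue. Each brain was stained with 6 antibody tags and its own hashtag, and all cells were run as 1 pool, which gave 1 cDNA, 1 antibody tag and 1 hashtag library. Which hashtag belonged to a naive brain is not stated in the labels, so brains are named by hashtag and the conditions were not compared. No genetic marker of cell origin was named in the labels. Every brain is 1 animal, the brains shared 0 cell barcodes, and no doublet caller was run.

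Circulating monocytes leave the bone marrow through the receptor Ccr2, carry Ly6c2 on their surface, and can become macrophages or antigen-presenting cells once they enter inflamed or tumor-bearing tissue. Microglia, in contrast, are seeded in the embryo and renew themselves within the brain, and they are known by genes such as Tmem119 and P2ry12. Macrophages at the borders of the brain, in the meninges and around vessels, are a further population, known for Pf4, Ms4a7 and Mrc1. After injury or tumor growth these populations take up overlapping programs, so that few genes part them cleanly.

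In CITE-seq an antibody is read by a short DNA barcode, and the barcode of each antibody is what was counted here as surface protein. Those of the 3 myeloid tags and of the 4 hashtags are shown in full capitals, as deposited, because the whole sequence identifies the antibody or the brain:
CD45: TGGCTATGGAGCAGA
CD11b: TGAAGGCTCATTTGT
CD86: CTGGATTTGTGTATC
hashtag 1: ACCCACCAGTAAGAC
hashtag 2: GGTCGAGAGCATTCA
hashtag 3: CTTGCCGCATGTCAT
hashtag 4: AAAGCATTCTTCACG

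The marrow-derived cells came from 2 of the 4 brains. None of the 21 cluster 3 cells of the hashtag 1 brain and none of the 34 of the hashtag 2 brain met the rule, and a count of 0, taken as a limit of 3 cells, allows shares of up to 14.3% and 8.82%. Of 155 cluster 3 cells of the hashtag 3 brain 41 did (26.5%, 95% Clopper-Pearson interval 19.7 to 34.1), and of 194 of the hashtag 4 brain 37 did (19.1%, 13.8 to 25.3). The 2 intervals overlap each other. All intervals here cover counting error only. Of 404 cells of cluster 3 over all brains, 289 passed the marrow gene condition, 191 of these passed the microglia ceiling, 109 the ceiling on Pf4, Gpnmb and Ms4a7, and 78 the T cell ceiling. In the hashtag 1 and 2 brains, 7 and 8 cells had 2 or more marrow genes, and all but 1 cell in each brain carried more than 2 microglia genes.

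The cells held few UMIs each, with medians of 3282 and 3486 in the hashtag 3 and 4 brains, and 143247 and 140767 UMIs in all. The median number of detected genes was 1355 and 1333, and the median mitochondrial share was 2.05% and 1.96%. A cell's own hashtag took a median 96.1% and 97.7% of its hashtag counts, and 34 of 41 and 30 of 37 cells reached 80%. Because a shallow cell passes a ceiling more easily, the rule was repeated after every cell of cluster 3 had been thinned to 2495 UMIs, the lowest total among these cells. It then kept 0, 0, 52 and 54 cells in the 4 brains, of which 41 and 33 were cells of the unthinned rule.

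Among the 78 cells, 16 had exactly 2 of the 5 marrow genes, 24 had 3, 26 had 4 and 12 had all 5. No microglia gene was seen in 42 cells, 1 in 20 and 2 in 16. The 16 cells just inside the marrow gene threshold had Lyz2 levels of 22.7 and 88.5 UMIs per 10000 in the respective brains, and median CD11b tag counts of 4643 and 3546.5. Just outside it, with exactly 1 marrow gene and all other conditions met, stood 2, 2, 7 and 4 cells of the 4 brains. Their Lyz2 was at 21.1, 226, 18.7 and 20.1 UMIs per 10000, and their median CD11b counts were 3612, 10056, 3633 and 1813. The monocyte gene Ly6c2 was at 3.17, 0, 6.35 and 2.87 in these cells. In the cells just inside, it was at 1.91 and 11.7, lower than just outside in the hashtag 3 brain and higher in the hashtag 4 brain.

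Among the genes that chose the cells, Ms4a4c, a membrane protein of the CD20 family, was seen in 36 of 41 cells of the hashtag 3 brain (87.8%) and 34 of 37 of the hashtag 4 brain (91.9%). Cells of cluster 1, which carry choroid plexus genes such as Ttr and should lack Ms4a4c, showed it in 2.76% and 8.91% at median depths of 8795 and 7847.5 UMIs. After thinning to 2495 UMIs, which no cell fell below, the shares were 82.9% and 75.7% in marrow-derived cells and 0.552% and 3.47% in cluster 1. Because the cells were chosen by this gene before thinning, the difference from cluster 1 describes the choice. Tgfbi, a matrix protein made by macrophages, stood at 6.35 and 3.98 UMIs per 10000. The C-type lectin receptor Clec4a3 stood at 3.28 and 4.12, and the scavenger receptor Msr1 at 3.42 and 1.99. Saa3, an acute phase protein given as a further marker, was unevenly spread: 58 UMIs lay in 8 cells of the hashtag 3 brain, 40 of them in 1 cell, and 13 UMIs lay in 2 cells of the hashtag 4 brain, 10 of them in 1 cell. Without that top cell in each brain its level was 1.29 and 0.217 in place of 4.05 and 0.924.

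Genes of monocytes and macrophages were detected, which by itself does not set these cells apart from the other macrophages of cluster 3. All 10 of the monocyte list had UMIs in both brains, with a median cell at 60.2 and 79.4 summed UMIs per 10000 and no cell at 0. All 10 general macrophage genes were also detected in both, with medians of 55.8 and 108. Of the 10 microglia genes 9 were detected in each brain, with a median cell at 6.50 and 4.89 and 12 and 7 cells at 0, against medians of 29.2 and 32.1 in the cluster 3 cells with at least 3 microglia genes. The microglia ceiling of the rule holds this sum down, so the difference describes the choice. Of the non-classical monocyte genes, which mark patrolling blood monocytes, 3 of 7 were detected in the hashtag 3 brain and 7 of 7 in the hashtag 4 brain, at summed levels of 0.558 and 2.42.

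Most lists of other immune cells were low. The summed level of the 8 conventional dendritic cell genes was 1.61 and 0.924 UMIs per 10000, with Flt3 and Xcr1 at 0 in both brains, Clec9a at 0 in the hashtag 3 brain and Itgae at 0 in the hashtag 4 brain. The border macrophage genes Lyve1, Cd163 and Folr2 were at 0 in both brains, and the summed level of that list was 6.77 and 7.25. In the hashtag 3 brain it came mostly from Pf4 (4.12), largely in 1 cell as given below. In the hashtag 4 brain Ms4a7 gave 6.46 and Pf4 was at 0. The B cell gene Ms4a1 and the T cell gene Cd3e were at 0 in both. Igkc, an antibody light chain, gave 32 of 37 and 17 of 19 UMIs of the B cell list, with 29 of the 32 in 1 cell, and NK cell genes summed to 1.19 and 0.852. Marrow progenitor genes summed to 0.908 and 0.426, with Mpo and Elane, granule enzymes of early granulocytes, at 0 in the hashtag 4 brain.

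RNA of 2 further cell types was present and uneven. The summed neutrophil list (8 of 10 genes detected in the hashtag 3 brain, with Ltf and Mmp9 at 0, and 9 of 10 in the hashtag 4 brain, with Cxcr2 at 0) had a median cell at 7.68 and 7.89 UMIs per 10000 and a highest cell at 219 and 1106. All 4 choroid plexus genes were detected in both brains, with medians of 143 and 144 and highest cells at 574 and 3067. The granule protein gene S100a8 had a UMI in 68.3% and 67.6% of marrow-derived cells, and in 81.8% and 79.2% of the deeper cluster 1 cells. At 2495 UMIs per cell the shares were 56.1% and 59.5% against 43.6% and 38.6%, so the order turned with depth and a UMI of S100a8 in 1 cell is not read as expression. Counting cells with neutrophil genes over 100, hemoglobin over 100 or Ttr over 500 UMIs per 10000, 2 of 41 cells of the hashtag 3 brain and 12 of 37 of the hashtag 4 brain were rich in RNA of other cells. Their part in the differences between the brains is given below as values with and without them.

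Of the 10 monocyte genes, 6 were higher in both brains and 2 lower than in the cluster 3 cells with at least 3 microglia genes, described below, with 2 called higher. Against the Pf4 and Gpnmb macrophages 4 were higher in both and 2 lower, none was called, and the median log2 differences of the list were -0.07 and 1.26, in the order hashtag 3, hashtag 4. The 10 macrophage genes held no call against either, with 5 lower and 1 higher in both brains each time. Over all genes tested, 24.0% were higher and 30.1% lower in both brains against the former group, and 27.3% and 24.1% against the latter. Called higher were 0.668% and 1.28% of all genes. With only 10 genes, the monocyte counts against the latter group were close to these shares. Ly6c2, the surface protein that defines inflammatory monocytes, stood at 9.77 UMIs per 10000 (95% Poisson interval 8.22 to 11.5) in the hashtag 3 brain and at 13.6 (11.7 to 15.6) in the hashtag 4 brain. It was seen in 30 of 41 and 30 of 37 cells. Plac8, a small cysteine-rich protein of monocytes and granulocytes, was at 15.6 (13.7 to 17.8) and 31.2 (28.3 to 34.2), a level in the hashtag 4 brain 1.99 times that in the hashtag 3 brain (95% interval 1.69 to 2.35).

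Chil3, a secreted chitinase-like protein of monocytes and alveolar macrophages, had the opposite order, 9.08 against 5.19. Ccr2 stood at 2.09 and 2.34, with overlapping intervals, and was seen in 43.9% and 40.5% of cells against 2.76% and 2.48% of cluster 1 cells. Ly6c2 was seen in more of the cluster 1 cells, 21.0% and 13.4%, and so was Plac8, in 29.3% and 25.7%. After thinning as above these shares were 3.31% and 6.93% for Ly6c2 and 8.29% and 9.41% for Plac8. In marrow-derived cells they were then 65.9% and 75.7% for Ly6c2 and 75.6% and 86.5% for Plac8. The Ms4a family member Ms4a6c was at 16.2 and 15.1, and haptoglobin, Hp, which binds free hemoglobin, at 3.70 and 2.27. Ifitm6 had 1.40 and 3.48. F13a1 and Vcan, also on the list, had 19 or fewer UMIs. Thus the monocyte genes did not all lean to 1 brain: of the 9 with at least 10 UMIs, 5 were higher in the hashtag 4 brain. Over all genes with at least 10 UMIs, 1639 of 3464 were higher there.

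Lyz2, lysozyme of myeloid cells, was at 33.1 (30.2 to 36.2) and 85.1 (80.4 to 90.1). Csf1r, the receptor that macrophages need for survival, was at 2.23 and 2.13. Cd68, a lysosomal protein, was at 3.56 and 4.90, and Fcgr1, the high-affinity antibody receptor, at 4.40 and 3.27. Cebpb, a transcription factor of monocytes and granulocytes, was at 22.8 and 21.2, and Spi1, the factor on which all myeloid cells depend, at 3.77 and 2.91. The intervals of these last 5 genes overlapped between the brains, whereas those of Lyz2 did not.

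The comparator groups, 2 in number, came from cluster 3 and placed these levels beside other macrophages of the same brains. One was the cells with at least 3 of the 7 microglia genes, 33 and 55 cells in the hashtag 3 and 4 brains. This comparator was chosen after the cell counts were seen. Its cells had at most 1 T cell gene, but no ceiling was set on marrow genes or on Pf4, Gpnmb and Ms4a7. Only 9 and 5 of them also had at most 1 marrow gene and at most 1 of Pf4, Gpnmb and Ms4a7. The group is thus not read as microglia alone. The other was the Pf4 and Gpnmb macrophages, with at least 2 of Pf4, Gpnmb and Ms4a7 and at most 2 microglia genes, 29 and 51 cells. Since the groups were cut by RNA within 1 cluster, no gene received a p-value, and the differences describe the groups. The comparators were deeper, with median UMIs per cell of 4341 and 4123 and of 4115 and 3904, against 3282 and 3486 in marrow-derived cells. The deepest cell of the first comparator held 21700 of its 170214 UMIs in the hashtag 3 brain. A gene was called when its level, taken as log2 of UMIs per 10000 plus 0.1, differed at least 2-fold in the same direction in both brains.

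Against the cells with at least 3 microglia genes, 145 of 6283 genes with at least 10 UMIs were called (2.31%), 42 higher (0.668%) and 103 lower (1.64%) in marrow-derived cells. Most of them rested on few UMIs, and with a minimum of 30 UMIs 44 of 2877 genes were called. Those with at least 150 UMIs over the groups, a number chosen after their values were seen, included Chil3, Ly6c2 and Ifit1, which were higher, and Cd81, Mt2 and Syngr1, which were lower. The log2 difference of Cd81, a tetraspanin, was -1.34 and -1.22. Mt2, a metal-binding protein, had levels of 2.79 and 0.852 against 5.70 and 1.93. By the size rule the list was led by Atp8b4, Serpina3g and Phf11a on the higher side and by Snx4, Rhoh and Ctla2b on the lower side, none with more than 13 UMIs in either brain's marrow-derived cells.

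Against the Pf4 and Gpnmb macrophages, 131 of 5788 genes were called (2.26%), 74 higher (1.28%) and 57 lower (0.985%), and 24 of 2544 with a minimum of 30 UMIs. Genes with 50 or more UMIs over the groups, again chosen after seeing them, were Ccl5, Ccnd2, Ifi47, Il1rn and Ly6i on the higher side and Fabp5 and Cyth4 on the lower side. Ifi47, an interferon-induced GTPase, had 17 and 25 UMIs in marrow-derived cells and 3 and 12 in the comparator. Il1rn, which blocks the interleukin 1 receptor, stood at 1.33 and 2.06 UMIs per 10000 against 0.586 and 0.725. Fabp5, a fatty acid carrier, stood at 2.44 and 4.76 against 5.27 and 17.2. The size rule was led by Adamts1, Serpina3g and Polb on the higher side and by Ctla2b, Gdf15 and Snx4 on the lower side, with at most 33 UMIs in any group.

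**Figure D1:**
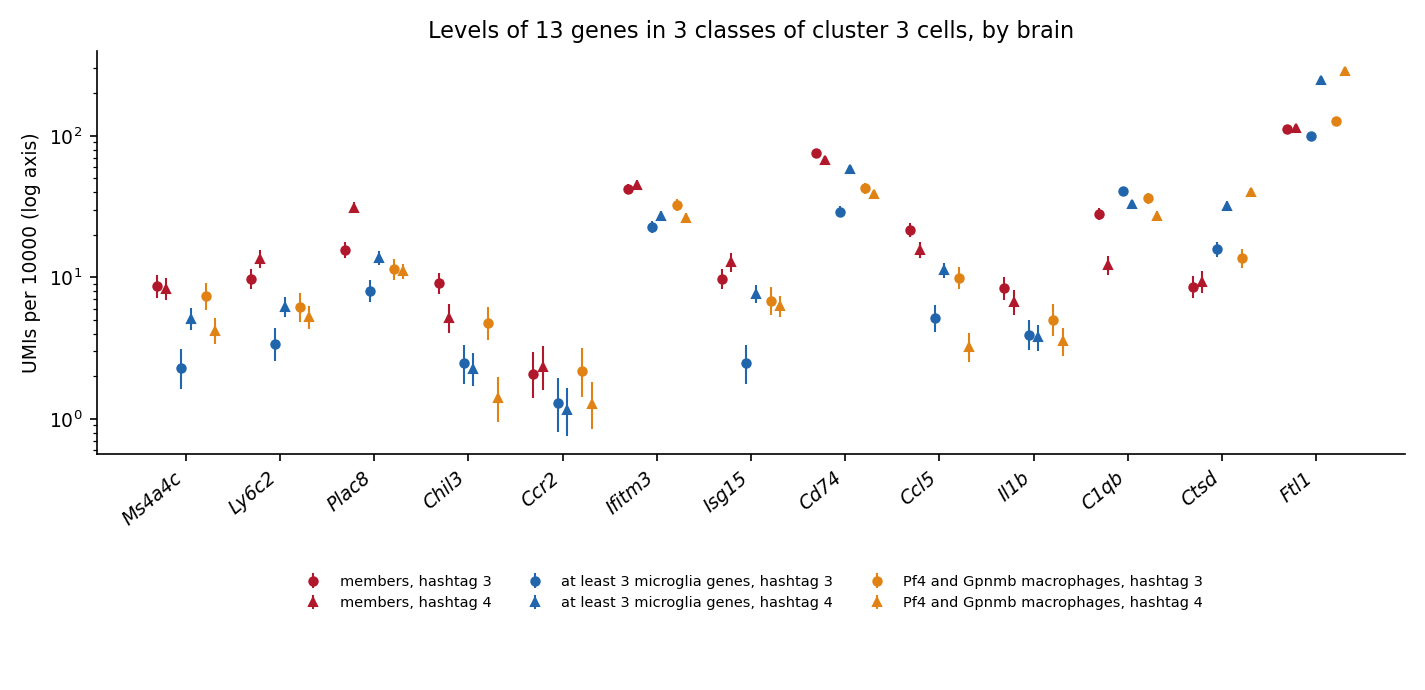
UMIs per 10000 on a log axis for 13 genes in marrow-derived cells (red), cells with at least 3 microglia genes (blue) and Pf4 and Gpnmb macrophages (orange) of the hashtag 3 (circles) and hashtag 4 (triangles) brains, with 95% Poisson intervals. Ly6c2, Chil3, Ifitm3 and Cd74 lie highest in the marrow-derived cells of both brains, and C1qb and Ctsd lie lowest there, with Ctsd in the hashtag 4 brain at 9.31 against 32.2 and 40.4.

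Type I and type II interferons, released in viral infection, injury and tumors, switch on many genes through STAT and IRF factors. The 31 interferon-induced genes listed here summed to 110 and 138 UMIs per 10000 in marrow-derived cells of the hashtag 3 and 4 brains, against 52.5 and 85.6 in cells with at least 3 microglia genes and 81.2 and 75.8 in Pf4 and Gpnmb macrophages. No marrow-derived cell was at 0: the median cell was at 92.5 and 143, the lowest at 27.9 and 22.3 and the highest at 234 and 310. In both brains the sum was higher in the marrow-derived cells than in either comparator. Much of the sum in marrow-derived cells came from Ifitm3, at 42.1 and 44.8, and Ifi27l2a, at 20.8 and 29.5.

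Isg15, a ubiquitin-like protein that is attached to others, stood at 9.77 (8.22 to 11.5) and 12.8 (11.0 to 14.8), against 2.47 and 7.64 in cells with at least 3 microglia genes and 6.86 and 6.30 in Pf4 and Gpnmb macrophages. Ifitm3, which blocks viral entry, stood at 42.1 and 44.8, against 22.7 and 27.2 and against 32.6 and 26.4. For Ifit1, which binds foreign RNA, the levels were 1.88 and 4.97, against 0.705 and 1.77 and against 1.76 and 1.09. Irf7, the factor that amplifies the response, was at 5.79 and 4.69 against 1.35 and 3.82 in the cells with at least 3 microglia genes, and Rsad2, an antiviral enzyme, at 2.79 and 4.83 against 0.940 and 2.50. Zbp1, a sensor of nucleic acids, had 2.16 and 2.42 against 0.470 and 1.27. Each of these 6 genes was higher in marrow-derived cells than in that comparator in both brains.

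Of the 30 interferon-induced genes with at least 10 UMIs, 3 were called higher and none lower against the cells with at least 3 microglia genes, and the difference was positive in both brains for 24 of 30, beside 1509 of all 6283 genes. The median log2 difference was 1.22 and 0.73 in the 2 brains, beside -0.05 and -0.03 over all genes. Against the Pf4 and Gpnmb macrophages 1 of 30 was called higher and none lower, and the medians were 0.39 and 0.85, beside 0.00 and 0.04 over all genes. The list described by interferon gamma (Cxcl9, the Gbp genes and others) had no call in 9 tested genes against the first comparator, with medians of 0.35 and 0.30, and none in 10 against the second.

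Among genes of this list with at least 1 RefSeq promoter, 250 bases before to 50 after the start, 13 of 23 held GAAA, any 2 bases and GAAA again on either strand, a pattern found in the interferon-stimulated response element, beside 3.99% of 27025 genes with a promoter. A match describes the letters and is no evidence of binding, and overlapping matches were counted separately. It was also in 6 of 11 interferon gamma-induced genes, in 1 of 11 chemokine genes, which was Cxcl10, and in none of 5 MHC class II genes. Irf7 held no match in this window. The promoters of 3 genes (build GRCm38.p6, strand of the gene) are shown because their levels are described here, with the matches in capitals. Isg15 (chr4:156200769-156201068, minus strand) holds 3 overlapping matches beginning 78 bases before the start. Ifit1 (chr19:34640639-34640938, plus strand) holds 2, the first 104 bases before it. Cxcl10 (chr5:92348840-92349139, minus strand) holds 1, beginning 213 bases before it.
Isg15: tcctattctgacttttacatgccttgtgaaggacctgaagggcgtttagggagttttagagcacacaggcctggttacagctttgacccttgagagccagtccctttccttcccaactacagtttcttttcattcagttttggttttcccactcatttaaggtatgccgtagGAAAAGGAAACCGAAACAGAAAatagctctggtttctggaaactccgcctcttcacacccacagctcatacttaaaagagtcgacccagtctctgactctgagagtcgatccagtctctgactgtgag
Ifit1: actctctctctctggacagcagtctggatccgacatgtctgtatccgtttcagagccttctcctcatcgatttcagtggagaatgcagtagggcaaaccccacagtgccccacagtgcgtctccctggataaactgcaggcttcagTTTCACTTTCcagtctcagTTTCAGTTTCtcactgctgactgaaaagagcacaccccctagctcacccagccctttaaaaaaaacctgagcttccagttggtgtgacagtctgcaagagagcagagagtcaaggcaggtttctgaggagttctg
Cxcl10: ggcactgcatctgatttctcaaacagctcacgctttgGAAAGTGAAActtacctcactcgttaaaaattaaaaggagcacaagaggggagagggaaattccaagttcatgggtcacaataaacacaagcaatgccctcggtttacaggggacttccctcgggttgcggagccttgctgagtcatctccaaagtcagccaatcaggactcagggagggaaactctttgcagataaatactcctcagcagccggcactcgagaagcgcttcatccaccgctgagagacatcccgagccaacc

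**Figure D2:**
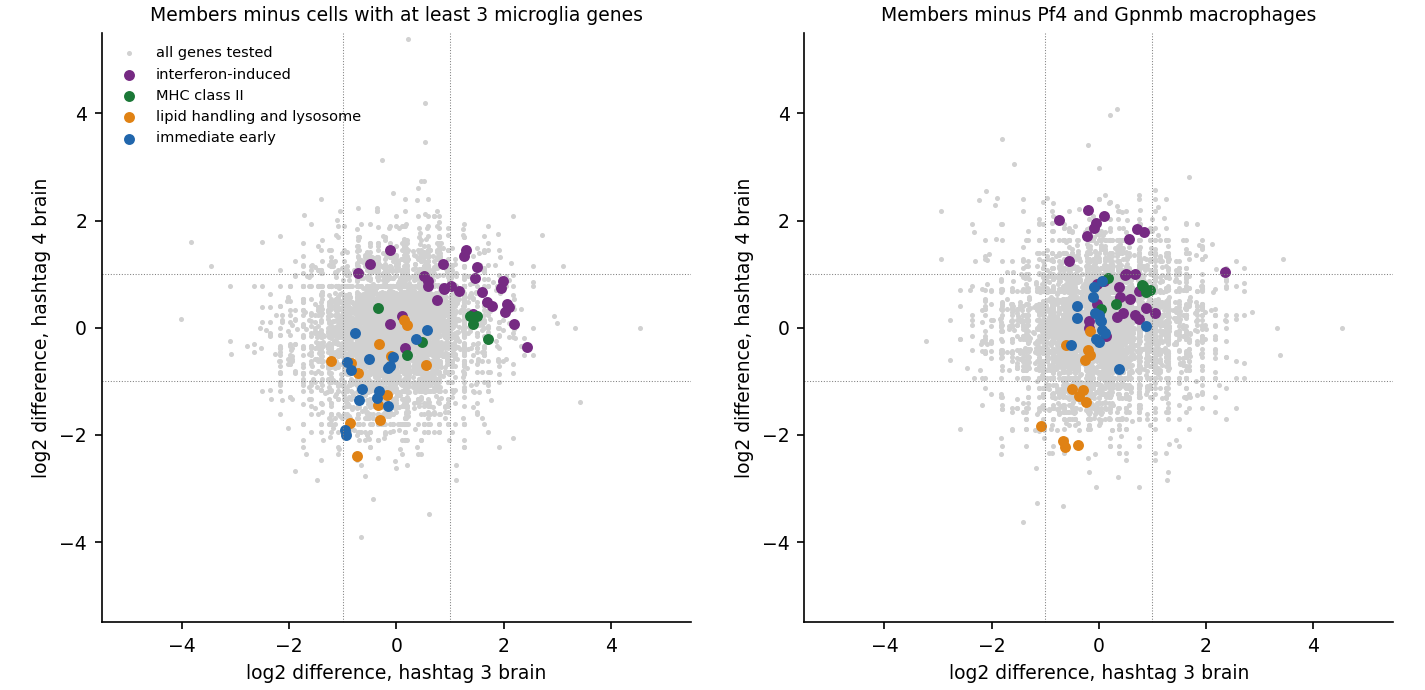
Log2 difference of levels in the hashtag 3 brain (x axis) against the hashtag 4 brain (y axis), marrow-derived cells minus each comparator, for all genes with at least 10 UMIs (grey) and 4 lists (colors), with dotted lines at 2-fold. Interferon-induced genes (purple) lie mostly above 0 in both brains against the cells with at least 3 microglia genes (24 of 30), and all 13 lipid and lysosome genes (orange) lie below 0 in both against the Pf4 and Gpnmb macrophages.

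MHC class II molecules, with their chaperone Cd74, present antigen to CD4 T cells. The 8 genes summed to 155 and 125 UMIs per 10000 in marrow-derived cells, against 58.6 and 114 in cells with at least 3 microglia genes and 86.4 and 74.1 in Pf4 and Gpnmb macrophages. Cd74 stood at 75.3 and 67.5, against 29.1 and 58.1 and against 42.8 and 38.7. H2-Ab1, a chain of the molecule itself, was at 30.7 and 23.2, against 11.4 and 22.2 and against 15.7 and 14.2. H2-Aa had 25.5 and 17.9, and H2-Eb1 19.7 and 10.9. The sum was higher in marrow-derived cells than in either comparator in both brains, although against the cells with at least 3 microglia genes the hashtag 4 values were close, with a median difference over 7 genes of 0.06 on the log2 scale. In the few microglia by marker count, defined below, it was 78.8 over 9 cells and 208 over 5 cells.

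Cells differed widely in these genes. In the hashtag 3 brain the quartiles of the summed MHC class II level were 13.2 and 228 around a median of 67.5, with a lowest cell at 3.01 and a highest at 710. In the hashtag 4 brain the quartiles were 34.3 and 249 around a median of 116, and the range was 1.80 to 428. None of the 7 tested genes was called against either comparator. Peptide presentation to CD8 T cells, by class I, varied less: the 10 class I genes summed to 102 and 100.2 in marrow-derived cells, within 83.4 to 104 in the comparators, with quartiles of 74.8 and 123 and of 83.3 and 118.

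Chemokines recruit other leukocytes, and the series names Cxcl10, which draws T and NK cells through Cxcr3, in its title. In marrow-derived cells Cxcl10 stood at 1.61 (1.02 to 2.41) in the hashtag 3 brain and at 6.75 (5.46 to 8.25) in the hashtag 4 brain, 4.20 times higher there (95% interval 2.64 to 6.95). It was seen in 11 of 41 and 20 of 37 cells, against 4.97% and 4.46% of cluster 1 cells. In the cells with at least 3 microglia genes of the 4 brains it stood at 1.31, 1.20, 1.88 and 3.41, and in the Pf4 and Gpnmb macrophages of the hashtag 3 and 4 brains at 1.26 and 1.31. Hence the marrow-derived cells of the hashtag 4 brain had the highest level among these groups, while those of the hashtag 3 brain lay within the range of the others. Its partner Cxcl9 had 1 UMI in the former brain and 21 UMIs in 9 cells of the latter.

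Ccl5, a ligand of Ccr1, stood at 21.6 (19.3 to 24.2) and 15.7 (13.7 to 17.9) in marrow-derived cells, against 5.17 and 11.2 in cells with at least 3 microglia genes and 9.96 and 3.22 in Pf4 and Gpnmb macrophages. It was the 1 chemokine of 14 tested that was called against the latter. Ccl5 was seen in 35.9% and 37.1% of cluster 1 cells. After thinning it was in 11.6% and 14.9% of them, against 61.0% and 67.6% of marrow-derived cells. Ccl2, which draws Ccr2-positive monocytes, stood at 6.77 and 3.77, against 4.29 and 4.07 and against 4.94 and 2.81. The remaining chemokines with 30 or more UMIs were lower in the hashtag 4 brain or close: Ccl3 had 12.6 and 2.70, and Cxcl2, a neutrophil attractant, 22.1 and 5.33. Ccl4 had 23.2 and 10.4, and Ccl9 8.17 and 3.84. Ccl7 and Ccl12, which also draw monocytes, had 2.93 and 3.05 and 2.72 and 3.34. In total 15 chemokines were tested against the cells with at least 3 microglia genes and none was called.

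Of the chemokine receptors, Ccr1 was called higher than in cells with at least 3 microglia genes, with 1.26 and 0.995 against 0.352 and 0.411. Ccr7 was called higher against the Pf4 and Gpnmb macrophages, with 14 UMIs in 4 cells and 2 UMIs in 2 cells against 0 in either brain of the comparator. The fractalkine receptor Cx3cr1, one of the ceiling genes, was kept low by the rule, at 1.88 and 1.63. Adhesion genes showed no call in 9 tested: the integrin chain Itgam, which encodes CD11b, had 1.68 and 1.21, and Selplg, the selectin ligand, 3.77 and 2.06.

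The inflammatory cytokine Il1b stood at 8.38 (6.95 to 10.0) and 6.68 (5.40 to 8.17), against 3.94 and 3.78 in cells with at least 3 microglia genes and 5.02 and 3.54 in Pf4 and Gpnmb macrophages. Tnf, in contrast, had 2.23 and 0.639 against 4.23 and 0.944 in the first comparator. Nos2, the inducible nitric oxide synthase, had no UMI in marrow-derived cells of either brain. Of 13 inflammation genes tested, 1 was called higher against each comparator: Saa3, which rests on 1 cell as given above, and Il1rn.

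Receptors for microbial and dying material were mixed. Clec4e, which binds mycobacterial lipid and products of cell death, had 3.84 and 2.63, against 1.94 and 1.15 in cells with at least 3 microglia genes. The formyl peptide receptor Fpr2 was called higher there with 1.12 and 1.14 against 0.470 and 0.411, on 16 UMIs in each brain. Fcgr3, a low-affinity antibody receptor, had 7.40 and 1.92 against 9.28 and 5.26, and Cd14, the co-receptor for bacterial lipopolysaccharide, 5.72 and 1.07 against 7.34 and 2.96. Of 17 tested genes of this list, 1 was called higher and none lower.

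Genes of immune regulation were low in level. Cd274, which encodes PD-L1, the ligand of the inhibitory receptor PD-1, was called higher against both comparators, at 0.698 and 1.14 against 0.294 and 0.452 and against 0.0837 and 0.317. It rested on 10 UMIs in 7 cells and 16 UMIs in 10 cells. Pirb, an inhibitory receptor for class I, had 2.65 and 1.42 against 0.881 and 0.862 in cells with at least 3 microglia genes. Lilrb4a had 3.00 and 3.27, and Tgfb1 1.61 and 2.77. Arg1, which consumes arginine, had 2.37 and 0.142. Cd86, a costimulatory ligand, had 1.61 and 0.995 and was not called.

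Most lipid and lysosome genes were lower than in both comparators, whereas the complement and iron lists leaned lower only against the Pf4 and Gpnmb macrophages. Of 9 complement genes, 3 were higher and 3 lower in both brains than in the cells with at least 3 microglia genes, and 1 was higher and 6 lower than in the Pf4 and Gpnmb macrophages. Of 11 iron and redox genes, 2 were higher and 2 lower against the former, and none higher and 6 lower against the latter, with no call in either list. Over all genes tested, 24.0% were higher and 30.1% lower in both brains against the former, and 27.3% and 24.1% against the latter. No difference of either list is read from its counts against the former. C1qb, a chain of the complement starter C1q, had 28.2 (25.5 to 31.1) and 12.2 (10.5 to 14.2), against 40.6 and 32.9 in cells with at least 3 microglia genes and 36.2 and 27.3 in Pf4 and Gpnmb macrophages. C1qa had 14.9 and 8.38, against 26.6 and 24.1 and against 21.0 and 17.9. Apoe, the lipid carrier, had 95.7 and 52.9 against 119 and 173 and against 147 and 249. Every cluster 1 cell of these brains also had a UMI of Apoe, so its level here includes whatever free RNA the pool held, and that part was not tested. C1qb was seen in 48.1% and 41.6% of cluster 1 cells. After thinning it was in 19.3% and 13.4% of them, against 97.6% and 78.4% of marrow-derived cells.

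Ctsd, a lysosomal protease, had 8.59 and 9.31 against 15.8 and 32.2 and against 13.7 and 40.4. Trem2, the lipid receptor of macrophages, had 2.93 and 1.63 against 4.93 and 9.03 and against 3.85 and 7.75. Of 13 lipid and lysosome genes, 10 were lower in both brains against the first comparator (76.9%, beside 30.1% of all genes), none of them called. All 13 were lower in both against the second (beside 24.1% of all genes), with Fabp5 called, and the median log2 differences were -0.38 and -1.16. Ftl1, the ferritin light chain that stores iron, had 112 and 114 against 99.7 and 246 and against 128 and 289. The difference in Ftl1 from the first comparator was thus present in the hashtag 4 brain and not in the hashtag 3 brain. Spp1, a secreted phosphoprotein of macrophages at sites of damage, had 11.7 and 5.83 against 7.64 and 65.9 and against 4.77 and 42.5, with opposite directions in the 2 brains. In marrow-derived cells 66 of its 167 UMIs and 42 of its 82 lay in 1 cell of each brain.

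The remaining program lists held no call against the cells with at least 3 microglia genes, other than the cell cycle gene Birc5, lower on 3 UMIs in each brain. Of 16 immediate early genes, such as Jun and Egr1, which respond to stimulation and also to dissociation, 14 were lower in both brains (87.5%, beside 30.1% of all genes), with median differences of -0.44 and -0.77. Against the Pf4 and Gpnmb macrophages 5 were higher and 3 lower in both. The summed level was 126 and 67.1 in marrow-derived cells, 155 and 119 in that comparator, and 129 and 64.1 in Pf4 and Gpnmb macrophages. Glycolysis genes summed to 32.7 and 32.8, against 34.2 and 35.2 and against 39.6 and 37.2. Cell cycle genes were sparse, with Mki67 at 0 in the hashtag 3 brain and 8 and 5 cells without a UMI of any of the 15. Of 14 wound repair genes, 6 were higher and 2 lower in both brains than in the cells with at least 3 microglia genes. These were 42.9% and 14.3%, beside 24.0% and 30.1% of all genes, with median log2 differences of 0.27 and 0.33. Thbs1, a secreted matrix glycoprotein, had 5.86 and 4.62 against 4.99 and 2.67. Against the Pf4 and Gpnmb macrophages 5 of 13 were higher and 3 lower in both brains. These were 38.5% and 23.1%, beside 27.3% and 24.1% of all genes, and none was called.

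The marrow-derived cells of the hashtag 3 and 4 brains were then set side by side. With 1 brain on each side there is no replicate check, and which brain was naive or metastatic is not known, so no test was made. Of 3464 genes with at least 10 UMIs, 555 differed at least 2-fold (16.0%), 199 higher in the hashtag 4 brain (5.74%) and 356 lower (10.3%). Scaled by median-of-ratios size factors, 271 were higher and 292 lower. Most of these again had few UMIs, and 130 of 1294 remained with a minimum of 30.

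Among the large differences toward the hashtag 4 brain were genes of neutrophils and red cells, beside Cxcl9, given below. S100a8 stood at 64.5 against 7.68, Camp, an antimicrobial peptide of neutrophil granules, at 14.6 against 0.838, and Ngp, another granule protein, at 15.1 against 1.05. Ltf, lactoferrin, had 31 UMIs against 0, at least 10.5-fold higher against a floor of 3 UMIs. Hba-a1, a hemoglobin chain, had 251 UMIs, of which 241 lay in 1 cell, against 14. Without the 14 cells rich in RNA of other cells, the log2 difference of S100a8 was -1.20 in place of 3.05, that of Camp -0.58 in place of 3.97, and that of Hba-a1 0.30 in place of 4.06. For Ttr, the thyroxine carrier made by the choroid plexus, it was -0.15 in place of 1.57. Since the 14 cells were chosen by high levels of such genes, and 12 of them were of the hashtag 4 brain, a fall of these values without them follows from the choice. The values describe how much of each difference lay in these cells.

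**Figure D3:**
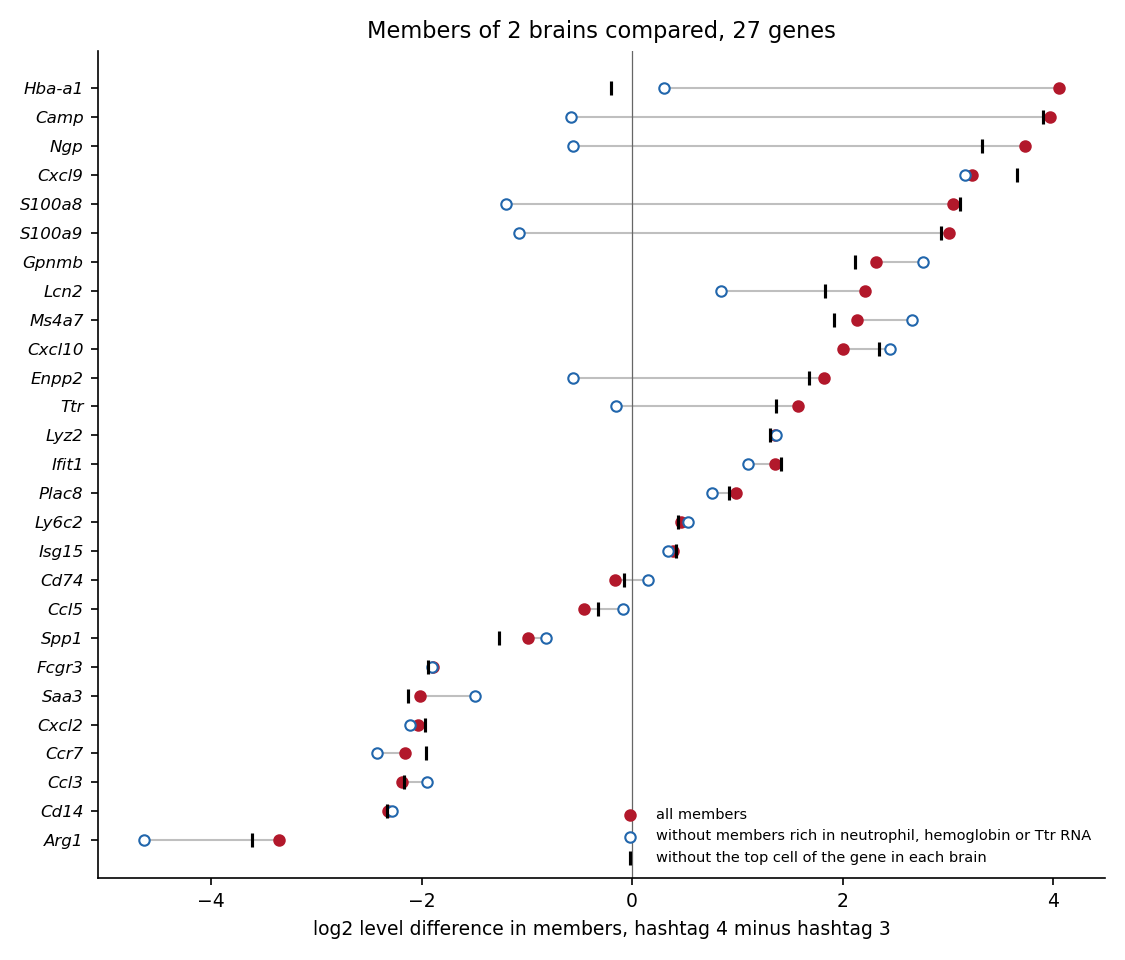
Log2 level difference of marrow-derived cells, hashtag 4 minus hashtag 3 brain, for genes with UMIs in both brains: all cells (filled red), without the 14 cells rich in neutrophil, hemoglobin or Ttr RNA (open blue), and without the single cell with the most UMIs of that gene in each brain (black bars). S100a8, Camp and Ttr move from 3.05, 3.97 and 1.57 to -1.20, -0.58 and -0.15 without the rich cells, while Cxcl10, Lyz2, Cd14 and Arg1 keep their direction under both.

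Other differences stayed past 2-fold without those cells. Lyz2 was 2.57 times higher in the hashtag 4 brain (95% interval 2.31 to 2.87), and its log2 difference was 1.36 with all cells and 1.37 without the rich ones. Cxcl10 had 2.01 and 2.45, and Cxcl9 3.23 and 3.17. Ms4a7, a membrane protein of macrophages, was 4.63 times higher (2.83 to 7.93), with 20 UMIs in 15 cells against 91 UMIs in 18 cells, but it is a ceiling gene of the rule, so its level describes the chosen cells. Ifit1 was 2.64 times higher (1.67 to 4.28), and its log2 difference was 1.35 with all cells and 1.11 without the rich ones. Of 29 interferon-induced genes with at least 10 UMIs, 6 passed 2-fold upward and none downward, beside 5.74% and 10.3% of all genes, with a median difference of 0.50, beside -0.08 over all genes, whereas Isg15 was only 1.31 times higher (1.04 to 1.64).

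Toward the hashtag 3 brain stood receptors, chemokines and complement. Cd14 was 5.37 times higher there (3.07 to 10.0), seen in 80.5% of cells against 32.4%, and Fcgr3 3.86 times (2.51 to 6.13). Ccl3 was 4.68 times higher (3.28 to 6.83), Cxcl2 4.15 times (3.22 to 5.42) and the lysosomal protease Ctsl 4.30 times (2.74 to 7.01). C1qb was 2.31 times higher (1.93 to 2.78). Of 14 chemokines with at least 10 UMIs, 7 were lower in the hashtag 4 brain past 2-fold and 2 were higher, beside 10.3% and 5.74% of all genes. Of 16 immediate early genes, 7 were lower past 2-fold, beside 10.3% of all genes. All 16 were below 0, whereas 1639 of all 3464 genes were above 0. The median of the list was -0.95, beside -0.08 over all genes. These differences kept their direction and stayed past 2-fold for Cd14, Fcgr3, Ccl3 and Cxcl2 without the rich cells and without the top cell of the gene.

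Arg1 had 34 UMIs in 11 cells of the hashtag 3 brain and 2 UMIs in 2 cells of the hashtag 4 brain, a ratio of 16.7 with a wide interval of 4.28 to 144. Il1r2, the decoy receptor of interleukin 1, had 45 UMIs in 22 cells against 5 in 5 cells. Pf4, a ceiling gene, had 59 UMIs against 0, but 44 of the 59 lay in 1 cell. Ccl17, a ligand of Ccr4 that was outside the fixed lists and was named by its difference, had 32 UMIs in 4 cells of the hashtag 3 brain, 19 of them in 1 cell, and none in the hashtag 4 brain, at least 10.5-fold higher against a floor of 3 UMIs. Ccr7, the receptor of migrating dendritic cells, was in 4 cells of the hashtag 3 brain, and none of these carried Ccl17. A few cells thus set the level of Pf4 and Ccl17. Arg1 was in 11 of 41 cells of the hashtag 3 brain, whereas Cd14 and Fcgr3 were in 80.5% and 82.9% of them.

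Within each brain, programs varied from cell to cell. The summed monocyte level ranged from 8.70 to 145 in the hashtag 3 brain and from 1.80 to 248 in the hashtag 4 brain. Complement genes had medians of 52.2 and 19.1, with highest cells at 215 and 148. The Spearman correlation across cells between monocyte and interferon-induced sums was 0.42 over 41 cells and 0.63 over 37 cells. That between monocyte and complement sums was -0.39 and -0.12, and that between interferon-induced and MHC class II sums 0.17 and -0.02. Complement and immediate early sums gave 0.50 and 0.10. These values describe sparse counts of cells that share 1 library, and sums of cells with the same total compete for UMIs. The monocyte sum had a correlation with the cell's UMI total of -0.21 and -0.12.

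**Figure D4:**
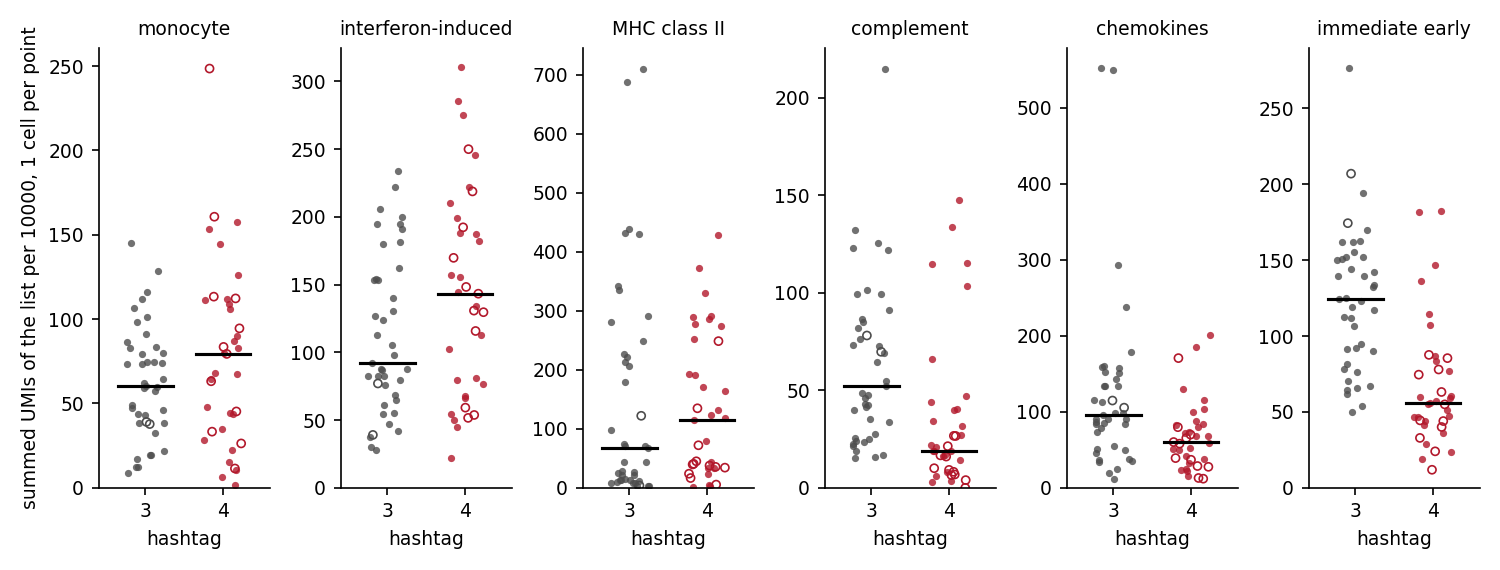
Summed UMIs per 10000 of 6 gene lists in each of the 41 (hashtag 3, grey) and 37 (hashtag 4, red) marrow-derived cells, with the median as a bar and cells rich in neutrophil, hemoglobin or Ttr RNA as open circles. MHC class II sums run from under 5 to 710 in the hashtag 3 brain, and the complement and immediate early medians are lower in the hashtag 4 brain (19.1 against 52.2 and 55.6 against 124).

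Antibody tags came from a separate library and did not enter the rule, so they were tested. CD45, carried by all leukocytes, had a median count per marrow-derived cell of 7530 and 9622 in the hashtag 3 and 4 brains, and CD11b, the myeloid integrin, 6922 and 5798. Cluster 1 cells of the same brains had medians of 38 and 42.5 for CD45 and of 39 and 45 for CD11b. The lowest marrow-derived cell had 223 CD45 counts and 361 CD11b counts. CD86, the costimulatory ligand, had medians of 205 and 372, against 10 and 11 in cluster 1. The T cell tags were low: CD3e had medians of 2 and 4, CD4 13 and 13, and CD25 13 and 12.

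Against the microglia by marker count (at least 3 microglia genes and at most 1 each of the marrow, Pf4 group and T cell genes), with 9 and 5 cells in the hashtag 3 and 4 brains, CD45 was 2.20 and 1.96 times higher in marrow-derived cells. In that comparison CD11b was 2.12 and 1.93 times higher and CD86 2.51 and 1.67 times. For each of these tags the direction was the same in 2 of 2 brains, and the two-sided exact sign-flip permutation test over the 2 brains gave p = 0.5, the smallest it can give, and 1.0 after Benjamini-Hochberg adjustment over 18 tests. The design therefore cannot pass a threshold of 0.05.

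Against the larger comparators the differences of CD45 and CD11b were smaller. CD45 was 1.04 and 1.41 times higher than in cells with at least 3 microglia genes and 1.06 and 1.62 times higher than in Pf4 and Gpnmb macrophages. Without the rich cells the mean log10 difference of the former was 0.0095 in place of 0.082, and the exact permutation p was 1.0 in place of 0.5, so the brains differed in direction. CD86 was 1.43 and 1.52 times and 1.17 and 1.78 times higher, again in 2 of 2 brains. CD11b was 0.984 and 1.09 times the level of cells with at least 3 microglia genes, and 0.867 and 1.11 times that of Pf4 and Gpnmb macrophages, so its direction differed between the brains. By the same exact test every tag had an unadjusted p of 0.5 or 1.0. Quartiles of the groups overlapped widely: CD86 ran from 112 to 307 and from 168 to 614 in marrow-derived cells, and from 86 to 282 and from 117.5 to 378.5 in cells with at least 3 microglia genes.

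**Figure D5:**
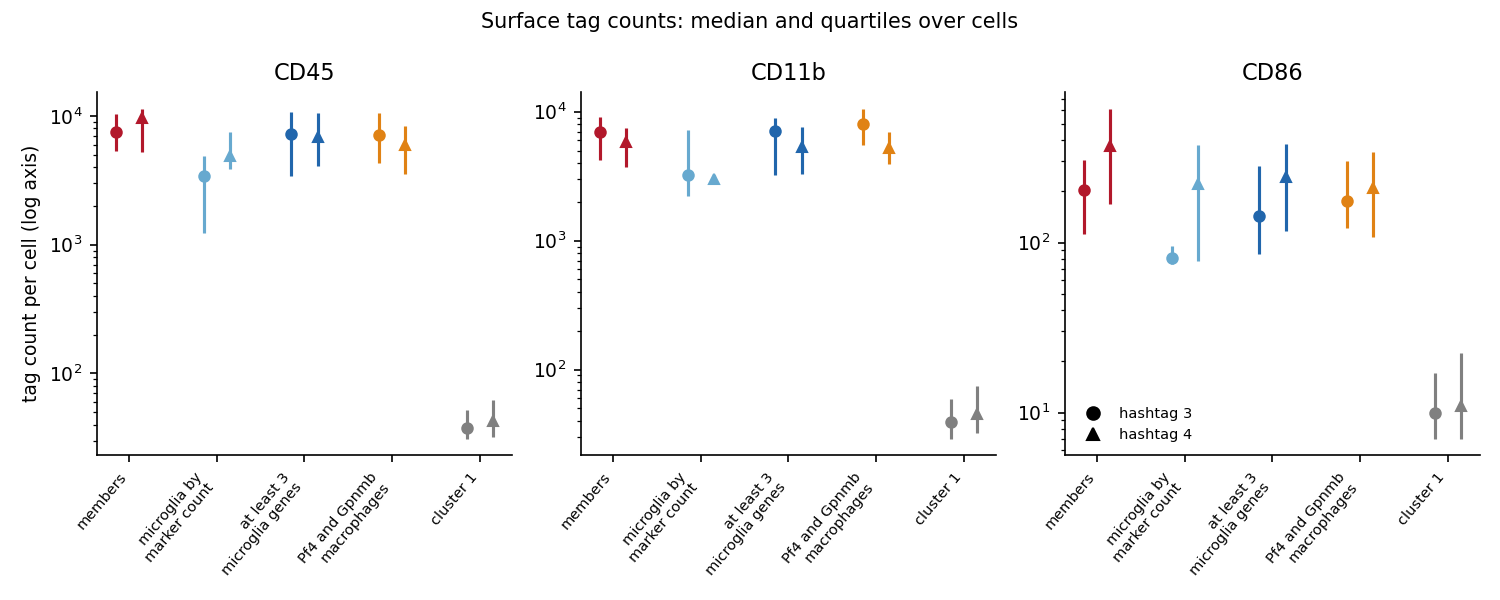
Median tag counts per cell, with quartiles, on a log axis for CD45, CD11b and CD86 in marrow-derived cells (red), 3 comparator groups of cluster 3 and cluster 1 (grey) of the hashtag 3 (circles) and hashtag 4 (triangles) brains. Marrow-derived cells stand above cluster 1 for each tag, as with CD45 at 7530 and 9622 against 38 and 42.5, and above the microglia by marker count in both brains.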

How the data were processed

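Cell Ranger 2.1 and Seurat 2.3.4 are named in the submitters' processing notes with mm10 as the genome, and tags were counted with CITE-seq-Count, per the labels. The authors deposited gene values as the natural log of 1 plus UMIs per 10000. UMI counts were recovered from them and the deposited UMI totals: 99.83% of nonzero values were whole within 0.01, and sums lay within 10 of the deposited total. The deposited cell table gives UMI, gene, hashtag and tag counts made by the authors, a mitochondrial fraction, a hashtag class and a cluster number (other labels, as deposited by the authors), and a p-value and q-value of hashtag assignment by the authors, which were not used. How cells were filtered is not given in the sources used here.

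A level is the summed UMIs of a gene over the summed UMI totals, times 10000, with an exact Poisson 95% interval, and the pseudocount of log2 differences was 0.1. Counts of called genes leave out the 20 rule genes and genes with under 10 UMIs. Classes needed 20 cells per brain. The planned comparator, microglia by marker count, had 7, 12, 9 and 5 cells, so its gene comparison was not run. Cells with at least 3 microglia genes took its place, a broader group without a ceiling on marrow genes or on Pf4, Gpnmb and Ms4a7. Named were the 10 called genes with the largest smallest difference in each direction, list genes with at least 30 UMIs in the marrow-derived cells, and rule genes and given markers, beside genes stated as chosen later and list genes under 30 UMIs where a call or a value of 0 is given. The cells, the gene lists and the tests were chosen with earlier results of these data known. The tags were compared with an exact sign-flip permutation test (scipy 1.17.1, Python 3.11.15). The calling of genes was tested on simulated data. Alternatives were pseudocount, scaling, filters, hashtag purity, a stricter rule, thinning and leaving out brains or cells. Some genes are not reported here.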

Additional observations from a re-analysis of the deposited data

Results flagged for a closer look

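Outside cluster 3, 77 cells met the gene conditions of the rule and carried 300 or more CD45 tag counts, a signal in cells that the comparisons did not use. They were among 319 such cells by genes alone. Of the 77, 24 lay in cluster 6 and 20 in cluster 7. The 25 cells of cluster 6 that met the gene conditions had 359 UMIs per 10000 of S100a8, 60.0 of Camp, 13.1 of Elane and 18.4 of Ly6c2, and 9.79 of Cd74.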

How the results depend on the processing

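The share of cluster 3 kept in the hashtag 4 brain was 27.8% after thinning, in place of 19.1%, and the other alternatives for either brain lay within the interval of the share. Counts of called genes depended most on how low counts were treated. With a pseudocount of 0.5 the counts were 5 against the cells with at least 3 microglia genes, 3 against the Pf4 and Gpnmb macrophages and 138 between the brains, in place of 145, 131 and 555. With no filter they were 234, 218 and 2259, and with a filter of 30 UMIs 44, 24 and 130. Without the top cell of each gene the first and second counts were 278 and 202. With 1 brain alone, where a call needs only that brain, they ranged from 506 to 582 and from 349 to 580. Without the 14 cells rich in RNA of other cells they were 189, 156 and 466, of which 89, 75 and 309 genes were shared with the calls over all cells in the same direction, so single calls on few UMIs are not stable.

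Tag differences near 0 changed sign. As mean log10 differences against the cells with at least 3 microglia genes, CD11b had -0.026 as a share of the 6 tag counts, -0.0052 with an own hashtag of at least 80% and -0.032 without rich cells, and CD86 had -0.012 and CD25 -0.0044 as shares. CD4 had 0.048 with the own hashtag limit and 0.025 without rich cells. Against the Pf4 and Gpnmb macrophages CD11b had 0.013 with the own hashtag limit, and CD86 had -0.00089, CD25 -0.050 and CD3e -0.087 as shares. CD4 there had 0.033 as a mean of log10, 0.016 with the own hashtag limit and 0.0063 without rich cells. Leaving out 1 brain, the first comparison ranged from -0.0072 to 0.039 for CD11b, from -0.058 to 0.032 for CD4, from -0.062 to 0.067 for CD25 and from -0.37 to 0.097 for CD3e. The second ranged from -0.062 to 0.046 for CD11b, from -0.11 to 0.067 for CD4, from -0.032 to 0.067 for CD25 and from 0.0 to 0.097 for CD3e. The higher CD86 tag is therefore not found when tags are taken as shares. The gene comparison with microglia by marker count and its alternatives were not run, since no brain had 20 such cells. No paired analysis was possible because the labels give no replicate numbers shared between groups of samples, and the cell classes were already compared within each brain. Medians of 3282 and 3486 UMIs per cell limit what can be seen of genes with few UMIs.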
